A study of Mus musculus with 12 samples.

Results

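The transcriptome of the hippocampal CA1 area was compared between mice that lack the DNA glycosylase NEIL2 and wild-type (WT) mice. The comparison rests on 6 of the 12 libraries of the series, 3 labelled Neil2-/- and 3 labelled wildtype, and was read across all genes measured. All animals were male, labelled C57Bl6 (C57BL/6N in the methods), 3 to 6 months old, and were taken from the home cage without any test or treatment, so that genotype is the only stated difference. CA1 of the dorsal hippocampus was cut from brain sections by laser microdissection, and poly-A RNA was sequenced, with 1 library per mouse. Neil1-/- mice (2 libraries) and Neil1-/-Neil2-/- mice (2 libraries, lacking both glycosylases) were used for a second comparison with and without NEIL2. The remaining 2 libraries carry a title of 1 genotype and a label of another, and entered no group. The WT mice were not littermates of the mutants, and each mutant line was bred on its own, so a difference between lines and an effect of the missing gene cannot be told apart in these groups.

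NEIL2 belongs to the enzymes that start base excision repair. It removes oxidized bases from DNA, acts well on open, single-stranded stretches such as those of transcribed genes, and leaves a gap that a polymerase and a ligase fill. CA1 pyramidal neurons form the main output of the hippocampus and are known for their part in spatial memory and anxiety-related behavior.

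The deposited table held estimated counts for 18558 genes, at 20239432 to 21970180 counts in the 6 libraries. Levels are given as CPM, which are counts after scaling for library size and composition, and changes as log2 fold changes with their standard error (SE). They come from edgeR's quasi-likelihood test over 13982 genes, with Benjamini-Hochberg adjusted p-values and a threshold of 0.05. Among markers of CA1 pyramidal neurons, 0 of 12 passed the test, and DESeq2 called 0 as well. An unadjusted p under 0.05 was reached by 4 of them, 3 higher and 1 lower, against 9.65% of all genes. Of the 12, 6 had a positive log2 fold change. The values ran from -1.85 to 0.36, with a median of 0.05. Wfs1, a protein of the endoplasmic reticulum that marks these cells, was at 629, 752 and 589 CPM in the WT libraries and at 880, 687 and 912 CPM in the Neil2-/- libraries. Neil2 itself (gene 382913, chromosome 14 of GRCm38, 63182439 to 63194154) had 15 counts over the 3 WT libraries and 0 over the 3 Neil2-/- libraries, which is at least 4.94-fold lower when the group's 0 is read as 3 counts, the largest number that a count of 0 allows. This floor, this interval and the ratios below cover counting error only. Neil1 was at 3.34, 2.95 and 4.44 CPM in WT and at 3.91, 4.05 and 4.01 CPM in Neil2-/- mice (log2 fold change 0.16, SE 0.19, adjusted p = 0.854). Neil2 had 10 and 5 counts in the libraries labelled Neil1-/- and 0 in both double knockout libraries. Neil1 RNA was not lower in the libraries labelled Neil1-/-, at 7.67 and 5.97 CPM, nor in the double knockout, at 6.58 and 7.19 CPM. The sources used here do not say which part of Neil1 was removed, so this level does not check the Neil1-/- label, and wherever Neil1-/- is written below it stands for libraries so labelled.

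In Neil2-/- mice 42 genes changed, 23 higher and 19 lower, which is 0.300% of the genes tested. Among them were more RNA of the clock output genes Ciart, Nr1d1 and Dbp and of the cold-inducible Cirbp, and less of Npy, Cldn5, Esd and the chaperones Pdia3 and Pdia6. For 19 genes the log2 fold change was beyond 1 in either direction, and for 11 it was under 0.6. Of the 42 genes, 9 belong to families of near-identical copies, 10 others lie within 20 Mb of Neil2, and 23 are neither (11 higher, 12 lower). In all 42 the 3 Neil2-/- libraries did not overlap the 3 WT libraries, as held for 15.3% of all genes tested. The median log2 fold change of all genes was -0.0023, and the median of its absolute value was 0.105.

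**Figure D1:**
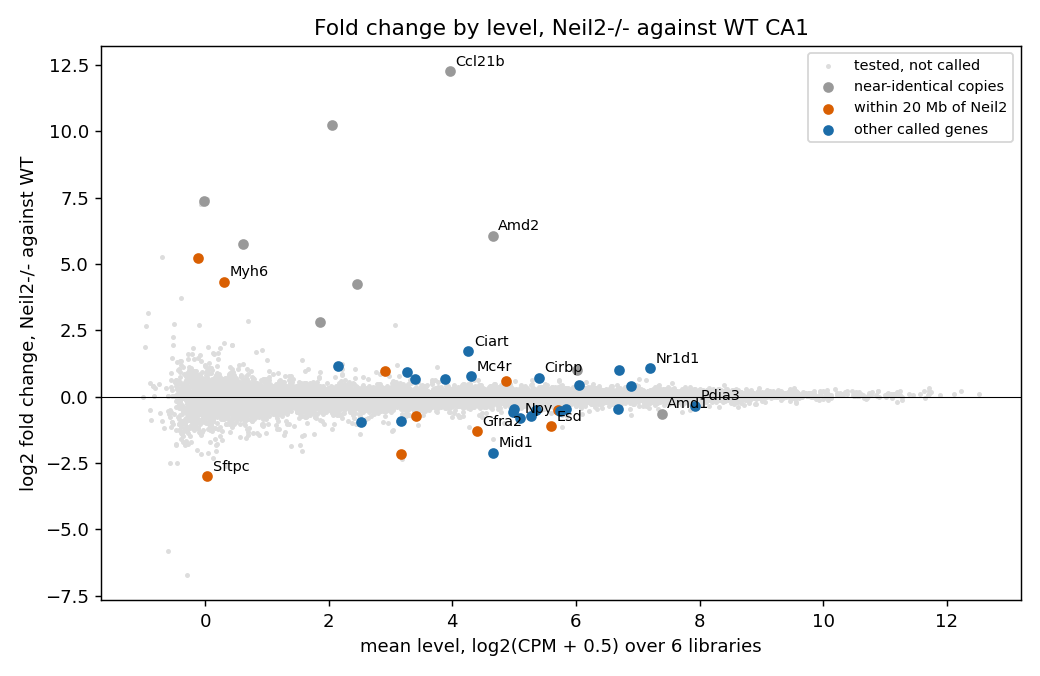
Log2 fold change of Neil2-/- against WT (vertical) by the mean level over the 6 libraries, log2(CPM + 0.5) (horizontal), for 13982 genes, with the 42 called genes as large points coloured by group. Most called genes that are neither copies nor near Neil2 lie within 1 of the zero line (18 of 23), and the highest points are copies.

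The count depended on single libraries. It was 17, 20 and 23 without WT replicate 1, 2 or 3, and 19, 18 and 15 without Neil2-/- replicate 1, 2 or 3, all with the remaining libraries of the other genotypes in the fit. DESeq2 called 158 genes (0.658% of those tested as higher and 0.472% as lower), among them all 42. At an unadjusted p under 0.05 stood 1349 genes (9.65%), 744 higher and 605 lower. The genes called in all 16 settings tried were Amd2, Ccl21b, LOC100041599, Mid1, Gm29804, Gm29801, Esd, Ciart, Amd1, Npy, Myh6 and Cirbp, 12 in number, while 11 of the 42 were called in under 50% of the settings.

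Ciart, Nr1d1 and Dbp belong to the circadian clock and its output. In this clock, the factors CLOCK and BMAL1 bind E-boxes and switch on their own repressors together with output genes, and the receptor REV-ERB alpha, made from Nr1d1, represses Arntl, the gene of BMAL1. The E-box CACGTG was searched on both strands of the RefSeq reference promoters (GRCm38.p6), only in the 250 bases before each start. The 50 bases after each start were not searched for any motif. The E-box is shown here for the called gene that holds it and for the other members of the clock output list that do. Capitals mark the E-box. The Ciart stretch is chr3:95882247-95882364 (minus strand), Bhlhe41 chr6:145865548-145865593 (minus) and the Tef stretches chr15:81802526-81802571 and chr15:81811256-81811301 (plus).
Ciart: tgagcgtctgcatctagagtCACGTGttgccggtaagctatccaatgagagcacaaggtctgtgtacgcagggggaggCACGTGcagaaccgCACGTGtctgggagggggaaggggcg
Bhlhe41: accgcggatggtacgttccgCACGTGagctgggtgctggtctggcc
Tef, first start: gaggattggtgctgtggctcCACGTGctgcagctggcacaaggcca
Tef, other start: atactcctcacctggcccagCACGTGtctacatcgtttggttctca

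The Ciart window held 3 E-boxes and the others printed 1 each. Of the 42 called genes 25 matched the promoter table, and only the window of Ciart held CACGTG, as did 9.75% of 11093 tested genes that matched and 6.02% of all 32851 promoters. Of the clock output list 11 genes matched and 3 held it (Tef, Ciart and Bhlhe41). The D-box (TTATGTAA or TTACGTAA) was in 0 of the 25 and in 1 of the 11 (Per3), and the cAMP response element TGACGTCA was in 1 of the 25 (Tra2a), against 0.793% and 2.92% of the tested genes. These are matches of letters, not sites of binding.

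Ciart, which encodes a repressor of CLOCK and BMAL1, was at 7.17, 11.1 and 7.95 CPM in the 3 WT libraries and at 23.9, 25.5 and 36.2 CPM in the 3 Neil2-/- libraries. Each Neil2-/- library was above each WT library, and the rise was 1.71 on the log2 scale (SE 0.18, adjusted p = 0.00109, edgeR). An antisense gene, C920021L13Rik, overlaps Ciart, and the sources used here do not say whether counting used strand. Nr1d1 was at 78.7, 125 and 78.4 CPM in WT and at 226, 172 and 200 CPM in Neil2-/- libraries, a log2 fold change of 1.08 (SE 0.16, adjusted p = 0.0147). The WT library closest to the Neil2-/- libraries, replicate 2, was the highest of the 3 for Ciart as well. Dbp, a transcription factor driven by the clock, was at 48.6, 92.0 and 64.0 CPM in WT and at 124, 125 and 166 CPM in Neil2-/- libraries (1.02, SE 0.18, adjusted p = 0.0450), with the same WT library on top. Nr1d1 shares sequence with Thra and Dbp with Sphk2 on the other strand.

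Of the 12 clock output genes tested 3 rose and 0 fell by the test, against 0.164% and 0.136% of all genes. The median log2 fold change was 0.31. An unadjusted p under 0.05 was reached by 7 higher and 1 lower, against 5.32% and 4.33% of all genes. Outside the threshold, Nr1d2, which encodes REV-ERB beta, had a log2 fold change of 0.33 (SE 0.08, adjusted p = 0.153), and Bhlhe41, a repressor that binds E-boxes, of 0.41 (SE 0.11, adjusted p = 0.212). Nfil3, a repressor that competes with Dbp for the D-box, was at 11.5, 6.48 and 9.07 CPM in WT and at 4.15, 4.495 and 5.18 CPM in Neil2-/- libraries (-0.97, SE 0.20, adjusted p = 0.0899). Per3, Hlf, Tef and Bhlhe40 had values between -0.03 and 0.09 with adjusted p from 0.721 to 0.962. DESeq2 called 5 members higher (Ciart, Nr1d1, Dbp, Nr1d2 and Bhlhe41) and 1 lower (Nfil3). Of the 14 genes of the core loop 0 passed the test and DESeq2 called 1 (Per1). An unadjusted p under 0.05 was reached by 2, against 9.65% of all genes. Per1, a repressor of the core loop, had a log2 fold change of 0.48 (SE 0.14, adjusted p = 0.245) and Arntl of -0.24 (SE 0.11, adjusted p = 0.522). Ciart was the only member of the output list called when WT replicate 1, WT replicate 3, Neil2-/- replicate 1 or Neil2-/- replicate 3 was left out. Without Neil2-/- replicate 2 it was called with Nr1d1, and without WT replicate 2 all 3 were called with Nfil3 lower. The sources used here do not give the hour at which each mouse was killed, and its part in these values was not tested.

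**Figure D2:**
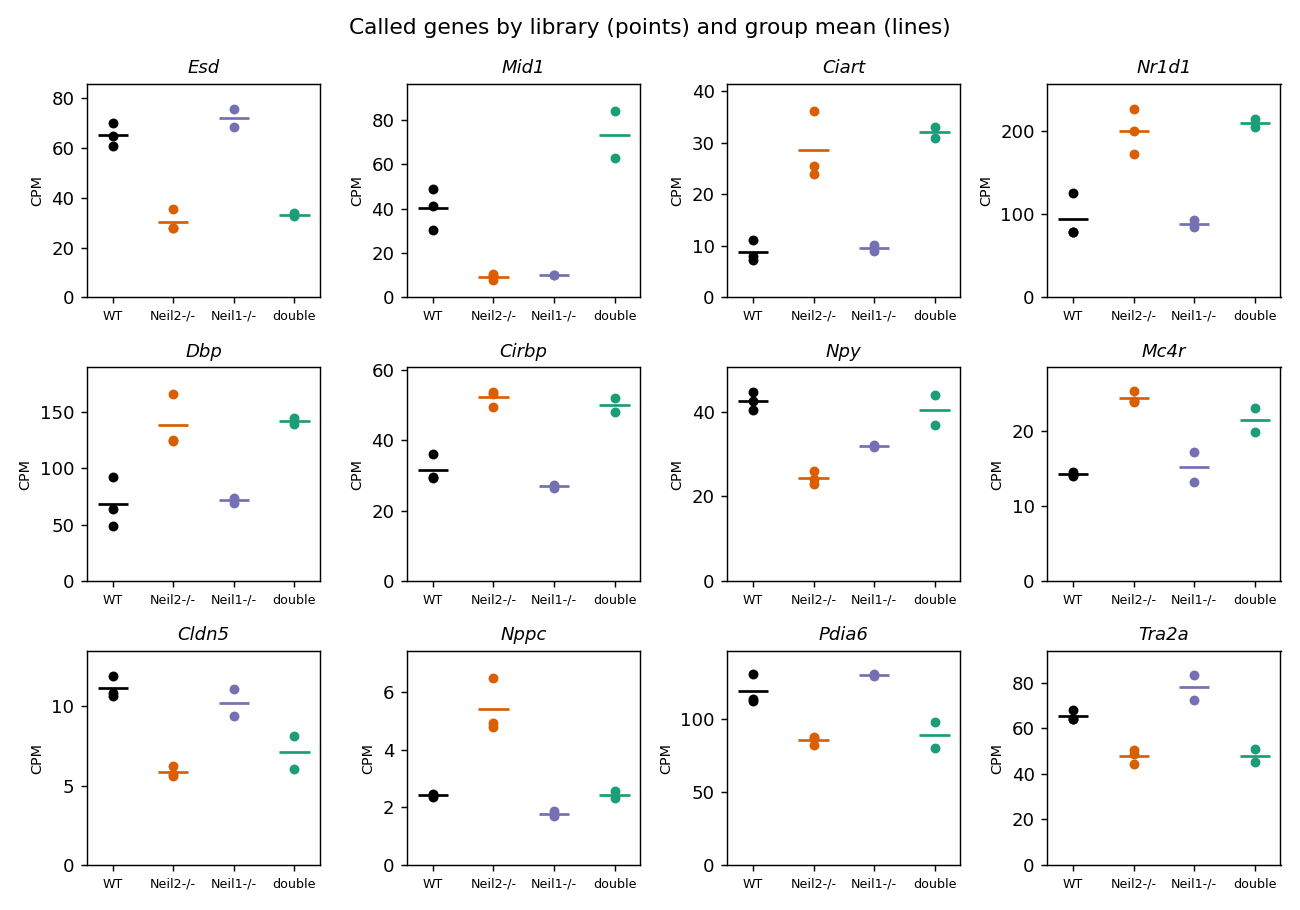
CPM in each library (points) and the group mean (lines) of 12 called genes in WT (3 libraries), Neil2-/- (3), Neil1-/- (2) and double knockout Neil1-/-Neil2-/- (2) mice, each axis from 0. Ciart, Nr1d1, Dbp and Cirbp lie higher and Esd, Pdia6 and Tra2a lower in both genotypes without NEIL2, Mid1 is near 10 CPM in both single knockouts, and Npy is lowest in Neil2-/- mice.

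Cirbp, an RNA-binding protein induced by mild cold, was at 29.2, 29.5 and 36.0 CPM in WT and at 49.5, 53.7 and 53.1 CPM in Neil2-/- libraries. The groups were well apart, with a rise of 0.72 on the log2 scale (SE 0.09, adjusted p = 0.00447). Rbm3, the other well-known cold-induced RNA-binding protein, was at 96.3, 86.2 and 114 CPM in WT and at 113, 195 and 168 CPM in Neil2-/- libraries (0.68, SE 0.16, adjusted p = 0.136). Its Neil2-/- replicate 1 lay within the WT range, and without that library Rbm3 passed the test. Of 20 cold-inducible and heat shock genes 1 rose and 0 fell by edgeR, while DESeq2 called 2 higher (Cirbp and Rbm3) and 1 lower (Hspa5). At an unadjusted p under 0.05 stood 2 higher and 7 lower, against 5.32% and 4.33% of all genes, and the median was -0.15.

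Pdia3 and Pdia6 encode protein disulfide isomerases of the endoplasmic reticulum, which form and rearrange disulfide bonds. Pdia3 was at 283, 264 and 270 CPM in WT and at 217, 210 and 221 CPM in Neil2-/- libraries (-0.34, SE 0.06, adjusted p = 0.0417). Pdia6 was at 130, 114 and 112 CPM in WT and at 87.4, 87.1 and 82.3 CPM in Neil2-/- libraries (-0.47, SE 0.08, adjusted p = 0.0417). Every Neil2-/- library was below every WT library for both, and both had the narrow spread of abundant genes. Hspa5, the main chaperone of this compartment, was just outside the threshold at 316, 253 and 236 against 186, 193 and 188 CPM (-0.50, SE 0.09, adjusted p = 0.0515). Of 32 genes of protein folding in the endoplasmic reticulum, a list written after the called genes were seen, 2 fell and 0 rose by edgeR, with a median of -0.12, and 5 fell by DESeq2 (with Calr, Hsp90b1 and Hspa5). Of the 32 genes, 0 higher and 10 lower had an unadjusted p under 0.05, against 5.32% and 4.33% of all genes. Pdia3 and Pdia6 both missed the threshold when any 1 of the 6 libraries was left out.

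Neuropeptide Y, a peptide of inhibitory interneurons, was at 40.6, 42.7 and 44.8 CPM in WT and at 26.1, 24.1 and 22.9 CPM in Neil2-/- libraries. The gap between the groups was several times the spread within them, and Npy fell by 0.81 on the log2 scale (SE 0.09, adjusted p = 0.0012). Of 28 neuropeptide and interneuron genes 1 fell and 0 rose by edgeR, DESeq2 called 3 lower (Npy, Crhbp and Cort) and 0 higher, and the median was -0.10. An unadjusted p under 0.05 was reached by 6 lower and 1 higher, against 4.33% and 5.32% of all genes. Cort, a peptide close to somatostatin, had a log2 fold change of -1.48 (SE 0.36, adjusted p = 0.153), Crhbp, which binds corticotropin-releasing hormone, of -0.73 (SE 0.18, adjusted p = 0.148), and Sst of -0.42 (SE 0.19, adjusted p = 0.507). Over 14 markers of interneurons the summed level was 524 to 656 CPM in WT and 501 to 543 CPM in Neil2-/- libraries, so the ranges overlapped. In RNA from a whole area, fewer cells of a type and less RNA per cell cannot be told apart.

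Mc4r, the melanocortin receptor through which peptides of the hypothalamus curb feeding, was at 14.1, 14.0 and 14.5 CPM in WT and at 25.2, 23.8 and 23.9 CPM in Neil2-/- libraries (0.78, SE 0.11, adjusted p = 0.00898). Of 24 neuropeptide receptors it was the only one called by edgeR's test. Npbwr1, a receptor of neuropeptides B and W, was at 4.55, 2.95 and 3.69 CPM in WT and at 1.12, 1.498 and 0.538 CPM in Neil2-/- libraries (-1.82, SE 0.50, adjusted p = 0.231). Its groups did not overlap, and DESeq2 called it lower (adjusted p = 0.0298). Nppc, the precursor of C-type natriuretic peptide, was at 2.42, 2.37 and 2.48 CPM in WT and at 4.94, 4.79 and 6.51 CPM in Neil2-/- libraries (1.16, SE 0.19, adjusted p = 0.0298). Mc4r and Nppc had a tight WT group and a Neil2-/- group clear of it. Even so, Mc4r missed the threshold without WT replicate 1 or 2. Nppc was called in 9 of 16 settings and missed it when any 1 of the 6 libraries was left out. Ppp1r1b, which encodes DARPP-32, the inhibitor of protein phosphatase that relays dopamine signals, rose by less, from 51.9, 58.9 and 56.8 to 69.8, 77.9 and 79.4 CPM (0.44, SE 0.08, adjusted p = 0.0475). Of 18 dopamine and DARPP-32 genes it was the only one called by edgeR or DESeq2. Ip6k2, an inositol hexakisphosphate kinase, rose from 98.8, 102 and 107 to 137, 128 and 139 CPM (0.39, SE 0.07, adjusted p = 0.0367).

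Cldn5, which seals the tight junctions of brain endothelium, was at 10.9, 11.9 and 10.7 CPM in WT and at 5.73, 6.24 and 5.63 CPM in Neil2-/- libraries (-0.93, SE 0.14, adjusted p = 0.0216). The libraries of each genotype lay close together and far from those of the other. Cldn5 was called in 9 of 16 settings, and missed the threshold when any 1 of the 6 libraries was left out. Of 16 markers of endothelium and mural cells Cldn5 was the only one called by either tool. The median was -0.25, and the summed level was 124 to 141 CPM in WT and 108 to 130 CPM in Neil2-/- libraries. Over 10 markers of meninges and fibroblasts the summed level was 57.3 to 155 CPM in WT and 29.4 to 70.2 CPM in Neil2-/- libraries. By edgeR's test 0 of them passed. An unadjusted p under 0.05 was reached by 4, all lower, against 4.33% of all genes. DESeq2 called 0 of these 10. Mpdz, a scaffold with many PDZ domains found at tight junctions and synapses, was at 40.2, 35.2 and 36.2 CPM in WT and at 27.8, 24.3 and 23.3 CPM in Neil2-/- libraries (-0.56, SE 0.09, adjusted p = 0.0262). The part of vessel or meningeal content in these values was not tested.

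Tra2a, a regulator of splicing, was at 68.1, 64.0 and 64.0 CPM in WT and at 44.4, 48.7 and 50.2 CPM in Neil2-/- libraries (-0.45, SE 0.08, adjusted p = 0.0455). Rbm28, an RNA-binding protein of the nucleolus, fell from 36.5, 34.2 and 38.1 to 27.7, 24.02 and 27.1 CPM (-0.46, SE 0.08, adjusted p = 0.0397). Snurf, the upstream reading frame of the imprinted Snrpn transcript, with which it shares its sequence, fell from 44.1, 48.8 and 50.9 to 27.8, 26.2 and 32.3 CPM (-0.74, SE 0.10, adjusted p = 0.00891). For Tra2a, Rbm28 and Snurf the libraries of the genotypes did not overlap. Tra2a and Rbm28 were called in 7 and 6 of 16 settings, and both missed the threshold when any 1 of the 6 libraries was left out. Of 29 splicing regulators, again a list written after the called genes were seen, 1 fell by edgeR and 3 by DESeq2 (Tra2a, Hnrnpc and Hnrnph1), 0 rose by either, and the median was -0.04. Of these 29 genes, 2 higher and 8 lower had an unadjusted p under 0.05, against 5.32% and 4.33% of all genes. Of 20 imprinted genes, likewise a list written after the called genes were seen, Snurf alone was called by edgeR or DESeq2.

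Several of the remaining called genes away from Neil2 encode enzymes. Acss1, which makes acetyl-CoA from acetate in mitochondria, rose from 10.9, 10.6 and 11.5 to 19.0, 16.0 and 17.7 CPM (0.67, SE 0.12, adjusted p = 0.0417). Dse, the epimerase that turns chondroitin into dermatan sulfate, rose from 5.62, 6.09 and 6.97 to 13.3, 10.6 and 12.1 CPM (0.95, SE 0.15, adjusted p = 0.0218). Colgalt2, a galactosyltransferase of collagens, rose from 8.43, 7.35 and 7.39 to 11.5, 12.0 and 13.5 CPM (0.67, SE 0.12, adjusted p = 0.0475). These 3 were thus higher in every Neil2-/- library, each at under 20 CPM. Glt8d2, a glycosyltransferase that overlaps the DNA glycosylase gene Tdg on the other strand, fell from 62.1, 65.7 and 60.7 to 40.9, 46.3 and 43.7 CPM (-0.53, SE 0.10, adjusted p = 0.0455). Tdg itself had a log2 fold change of -0.15 (SE 0.07, adjusted p = 0.518). Gm40363, a gene model without a described role, fell from 46.0, 44.5 and 51.0 to 36.3, 32.5 and 32.5 CPM (-0.48, SE 0.08, adjusted p = 0.0315).

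Mid1, which encodes a ubiquitin ligase of microtubules, had the largest fall among the genes that are neither copies nor near Neil2. It lies on chromosome X (169685199 to 169990798, GRCm38), where in laboratory mice it spans the boundary of the region shared with the Y chromosome, and 5 small or antisense genes overlap it. It was at 48.7, 41.3 and 30.3 CPM in WT and at 10.7, 9.59 and 7.68 CPM in Neil2-/- libraries (-2.10, SE 0.18, adjusted p = 0.000199). The lowest WT library was still above the highest Neil2-/- library by a wide margin. Neil1-/- libraries were at 10.1 and 9.94 CPM and Neil1-/-Neil2-/- libraries at 62.9 and 83.9 CPM. The level was thus low in both single knockouts and high in the double knockout.

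Within 20 Mb of Neil2 on chromosome 14, 10 of 262 tested genes changed (3.82%), 4 higher and 6 lower. Elsewhere it was 27 of 13346 genes with a position (0.202%). An unadjusted p under 0.05 was reached by 26.3% of the genes in that window and by 9.22% of those elsewhere. Within 5 Mb of Neil2, 0 of 57 genes passed edgeR's test and 8 had an unadjusted p under 0.05. The called genes lay from 13.4 Mb before to 16.1 Mb after Neil2. The part of chromosome 14 sequence that mutants and WT mice may not share was not tested.

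**Figure D3:**
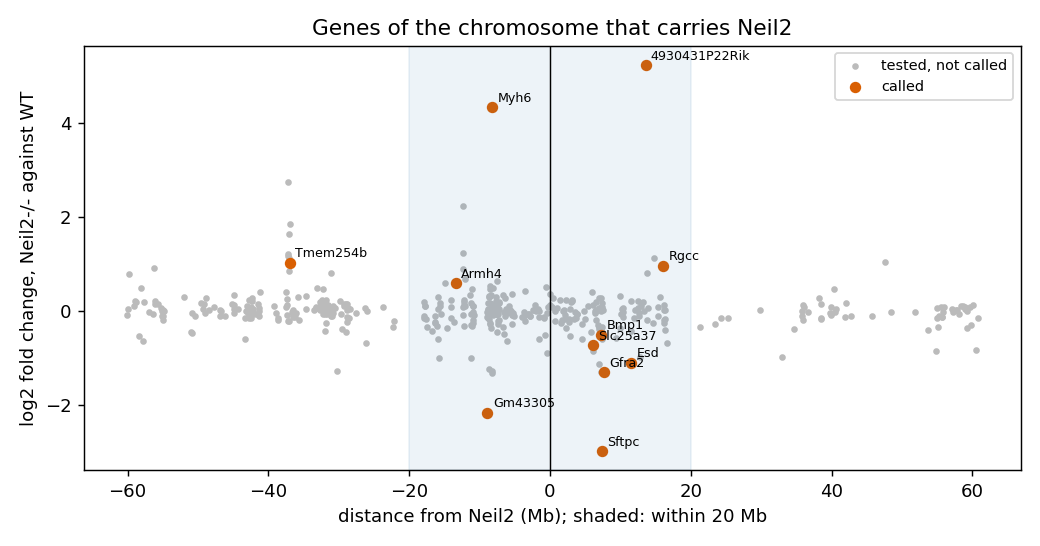
Log2 fold change of Neil2-/- against WT (vertical) for the 485 tested genes of chromosome 14 by distance from Neil2 in Mb (horizontal), with called genes in orange and the window of 20 Mb shaded. The 10 called genes of the window lie 6.05 to 16.1 Mb to the right or 8.21 to 13.4 Mb to the left of Neil2, and the only other called gene of the chromosome, Tmem254b, is a copy 37.0 Mb away.

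Esd, an esterase that completes the breakdown of formaldehyde bound to glutathione, lies 11.5 Mb after Neil2 (chromosome 14, 74732151 to 74750765). It was at 65.0, 60.9 and 70.3 CPM in WT and at 27.96, 27.97 and 35.3 CPM in Neil2-/- libraries (-1.10, SE 0.10, adjusted p = 0.000245). Of 35 antioxidant and redox genes it was the only one called by either tool, and the median of the list was 0.01. Gfra2, the receptor of the neurotrophic factor neurturin, lies 7.70 Mb after Neil2 and fell from 25.6, 37.6 and 24.9 to 12.5, 9.34 and 13.7 CPM (-1.31, SE 0.23, adjusted p = 0.0417). Bmp1, the protease that trims procollagens, fell from 60.8, 63.8 and 58.1 to 42.4, 41.9 and 44.4 CPM (-0.51, SE 0.09, adjusted p = 0.0397). Slc25a37, the iron importer of mitochondria, fell from 11.3, 13.4 and 13.4 to 8.39, 7.19 and 7.34 CPM (-0.74, SE 0.12, adjusted p = 0.0287). These 4 genes lay in a stretch from 6.05 to 11.5 Mb after Neil2 and all fell. Gfra2 was called in only 5 of 16 settings, and the WT library at 37.6 CPM stood above the other 2.

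Other genes of the window were rare transcripts in CA1. Myh6, the alpha myosin heavy chain of heart muscle, had 4 counts over the WT libraries and 87 over the Neil2-/- libraries, a ratio of 22.03 (95% interval 8.30 to 82.7). Its levels were 0.0485, 0.0483 and 0.0935 CPM in WT and 1.30, 1.80 and 1.13 CPM in Neil2-/- libraries (adjusted p = 0.00196), and an antisense gene overlaps it. Its neighbor in the genome, Myh7, was at 13.2, 9.72 and 9.68 CPM in WT and at 4.24, 4.25 and 4.94 CPM in Neil2-/- libraries (-1.28, SE 0.31, adjusted p = 0.151). DESeq2 called Myh7 lower (adjusted p = 0.00408), and of the 12 sarcomere and muscle genes tested edgeR called Myh6 and DESeq2 both. The non-coding 4930431P22Rik had 1 count in WT and 51 in Neil2-/- mice, a ratio of 51.7 (95% interval 8.86 to 2080), with an adjusted p of 0.0216. Sftpc, the surfactant protein C of the lung, had 59 counts in WT and 7 in Neil2-/- mice, a ratio of 0.12 (95% interval 0.0463 to 0.263), with an adjusted p of 0.0284. These 3 changed at levels of under 2 CPM in every library.

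Rgcc, a regulator of the cell cycle, rose from 4.65, 4.93 and 4.67 to 9.04, 9.99 and 8.80 CPM (0.96, SE 0.16, adjusted p = 0.0287), and Armh4 from 22.7, 24.1 and 22.3 to 34.2, 34.2 and 35.5 CPM (0.59, SE 0.10, adjusted p = 0.0287). Gm43305, a gene model without a described role, was at 10.3, 22.8 and 8.65 CPM in WT and at 4.24, 1.70 and 3.28 CPM in Neil2-/- libraries (-2.17, SE 0.37, adjusted p = 0.0367). Its WT replicate 2 stood well above the other WT libraries, and it was called in 7 of 16 settings.

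The 9 called copies share reads with relatives, so their counts are uncertain and are described only. Amd2, a near-identical copy of Amd1, the decarboxylase of polyamine synthesis, was at 0.921, 0.870 and 0.374 CPM in WT and at 44.3, 49.2 and 52.6 CPM in Neil2-/- libraries, while Amd1 was at 215, 205 and 190 CPM in WT and at 126, 131 and 134 CPM in Neil2-/- libraries. The Amd1 difference was larger than the Amd2 difference in CPM, and the 2 had opposite signs. Of the 10 other genes of polyamine synthesis and turnover tested 0 passed edgeR's test or DESeq2, and 1 had an unadjusted p under 0.05. Ccl21b, a chemokine of a family with many copies, had 0 counts in WT and was at 23.3, 30.7 and 36.0 CPM in Neil2-/- libraries. With the WT 0 read as 3 counts, it was 625-fold higher. LOC100041599 and Gm13302 also had 0 counts in WT, and were by the same floor 152-fold and 20.9-fold higher. The lower ends of the 95% intervals of these 3 ratios were 508, 123 and 16.5. LOC100041593 had 2 counts in WT and 125 in Neil2-/- mice, a ratio of 63.3 (95% interval 17.2 to 528). Gm29804 and Gm29801 had log2 fold changes of 4.25 (SE 0.37) and 2.83 (SE 0.25), and Tmem254b of 1.02 (SE 0.15). The Neil1-/- libraries were at 13.0 and 25.6 CPM for Ccl21b, 7.38 and 10.5 CPM for LOC100041599 and 92.3 and 96.2 CPM for Tmem254b. All 3 were therefore also above each WT library in the other single knockout, whereas Amd2, at 0.858 and 1.104 CPM, was not.

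Most gene lists held few or no called genes. In the 8 DNA glycosylases other than NEIL1 and NEIL2, and in the 22 later enzymes of base excision repair, 0 passed edgeR's test, with medians of -0.08 and -0.01. An unadjusted p under 0.05 was reached by 1 glycosylase (Tdg, lower) and by 3 of the later enzymes, against 9.65% of all genes. DESeq2 called 0 in both lists. Among the later enzymes, Parp1, a sensor of DNA breaks, had a log2 fold change of 0.30 (SE 0.09, adjusted p = 0.302), Apex1, which cuts abasic sites, of 0.23 (SE 0.09, adjusted p = 0.397), and Rfc1, a subunit of the clamp loader, of -0.31 (SE 0.09, adjusted p = 0.238). Ogg1, which removes oxidized guanine, had a value of -0.10 (SE 0.17, adjusted p = 0.903), and Nthl1 of -0.58 (SE 0.39, adjusted p = 0.682). Neil3 was not tested, with at most 1 count per library. Of 22 genes of p53 and its targets, and of 14 of DNA methylation and demethylation, 0 passed by either tool. In each list 1 was at an unadjusted p under 0.05, against the same 9.65% of all genes.

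Genes of the synapse gave 0 called genes in edgeR's test. This held for 7 subunits of NMDA receptors (1 at an unadjusted p under 0.05), 16 of AMPA and kainate receptors (5), 20 genes of GABA receptors and the inhibitory synapse (4), 22 of the excitatory scaffold (4) and 46 potassium channels (10). DESeq2 called 0, 0, 0, 1 and 1 of them. Of the genes counted in brackets, 1, 3, 4, 3 and 8 were higher. Over all genes tested 9.65% had an unadjusted p under 0.05. The interval of the log2 fold change was narrow for Dlg4, which encodes PSD95, at -0.00 (95% interval -0.18 to 0.17), and wider for Grin2a at 0.07 (-0.25 to 0.40), Grin2b at 0.10 (-0.14 to 0.35) and Gabra2 at -0.01 (-0.30 to 0.28). Nrgn, a calmodulin-binding protein of spines, had a value of 0.32 (SE 0.08, adjusted p = 0.201), and Kcnj4, an inward rectifier, of 0.45 (SE 0.09, adjusted p = 0.0899).

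Of 29 activity-induced early genes 0 passed edgeR's test, and the median was -0.26. At an unadjusted p under 0.05, 3 were higher and 7 lower, against 5.32% and 4.33% of all genes. Nr4a2, a nuclear receptor induced by activity, came closest, at 98.8, 72.7 and 76.3 CPM in WT and 49.8, 52.8 and 56.7 CPM in Neil2-/- libraries (-0.64, SE 0.12, adjusted p = 0.0610), and DESeq2 called it along with Egr3 (lower) and Per1 (higher). Nr4a3 had a value of -0.36 (SE 0.10, adjusted p = 0.228), Egr3 of -0.29 (SE 0.07, adjusted p = 0.175), Nr4a1 of -0.15 (SE 0.21, adjusted p = 0.883) and Npas4 of -0.20 (SE 0.21, adjusted p = 0.823). Fos was at 9.88, 4.11 and 8.65 CPM in WT and at 1.21, 1.95 and 5.38 CPM in Neil2-/- libraries (-1.41, SE 0.57, adjusted p = 0.450), with overlapping groups. Of 20 corticosteroid receptors and targets 8 were higher and 1 lower at an unadjusted p under 0.05, against 5.32% and 4.33% of all genes, with a median of 0.22; 0 passed edgeR's test and DESeq2 called Per1. Of these 8, Per1, Klf9 and Sgk1 had values of 0.48 (SE 0.14), 0.23 (SE 0.07) and 0.32 (SE 0.10). Ribosomal proteins (41 genes, median -0.05) and oxidative phosphorylation (38 genes, median 0.02) had 0 called genes by either tool and 0 and 1 at an unadjusted p under 0.05.

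**Figure D4:**
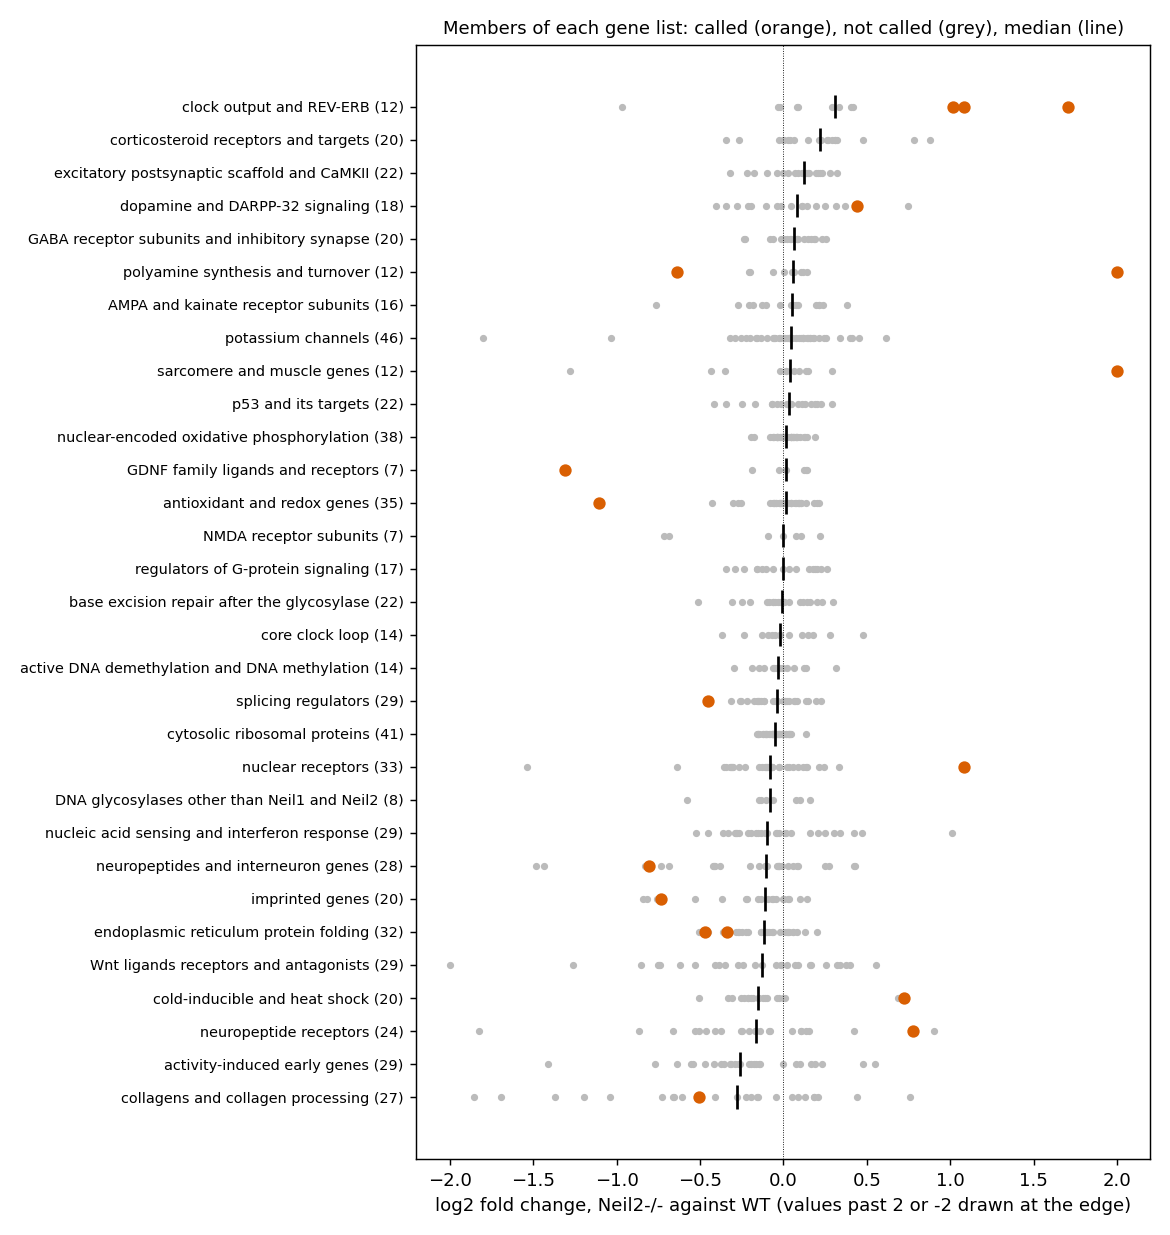
Log2 fold change of Neil2-/- against WT (horizontal) for the tested members of each gene list (rows, number tested in brackets), with called members in orange, others in grey and the list median as a line; values past 2 in either direction are drawn at the edge. The clock output list has 3 called members and the highest median (0.31), and, among the lists drawn, collagens have the lowest (-0.28).

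Markers of neighboring areas differed a little between the groups. Over the CA3 and CA2 list the summed level was 416 to 491 CPM in WT and 519 to 567 CPM in Neil2-/- libraries, and over the list of subiculum and cortex neurons 121 to 162 and 104 to 116 CPM. In both lists the ranges of these sums did not overlap. By mean log2(CPM + 0.5) relative to the WT mean, the CA3 and CA2 ranges did overlap. They were -0.25 to 0.18 in WT and 0.10 to 0.40 in Neil2-/- libraries. Those of subiculum and cortex neurons did not, at -0.23 to 0.23 and -0.47 to -0.27. In each list 0 of 12 tested genes passed edgeR's test and DESeq2 called 0. An unadjusted p under 0.05 was reached by 4 and 1 of them, against 9.65% of all genes. Markers of oligodendrocytes (16), astrocytes (17), microglia (15), dentate granule neurons (12), thalamus and striatum (15), choroid plexus and ependyma (8 tested) and blood (5 tested) had 0 called genes by either tool, with an unadjusted p under 0.05 for 1 astrocyte and 2 granule neuron markers. Their part in the results was not tested.

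Loss of NEIL2 was then compared between other groups, Neil1-/-Neil2-/- against Neil1-/-. In this comparison 64 genes changed (0.458%), and 13.0% of all genes had an unadjusted p under 0.05. Of the 42 genes above, 30 had the same sign in both comparisons, 12 of them passed the test again, and 28 of them had an unadjusted p under 0.05. In the group of 23 that are neither copies nor near Neil2 the same sign was seen for 20, and 8 passed again, among them Ciart, Nr1d1, Cirbp and Acss1 higher and Pdia6, Glt8d2 and Tra2a lower. In the group of 10 near Neil2 it was seen for 9, and 4 passed again (Myh6 and Rgcc higher, Esd and Bmp1 lower). The comparisons share no library, but they share the estimate of spread.

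**Figure D5:**
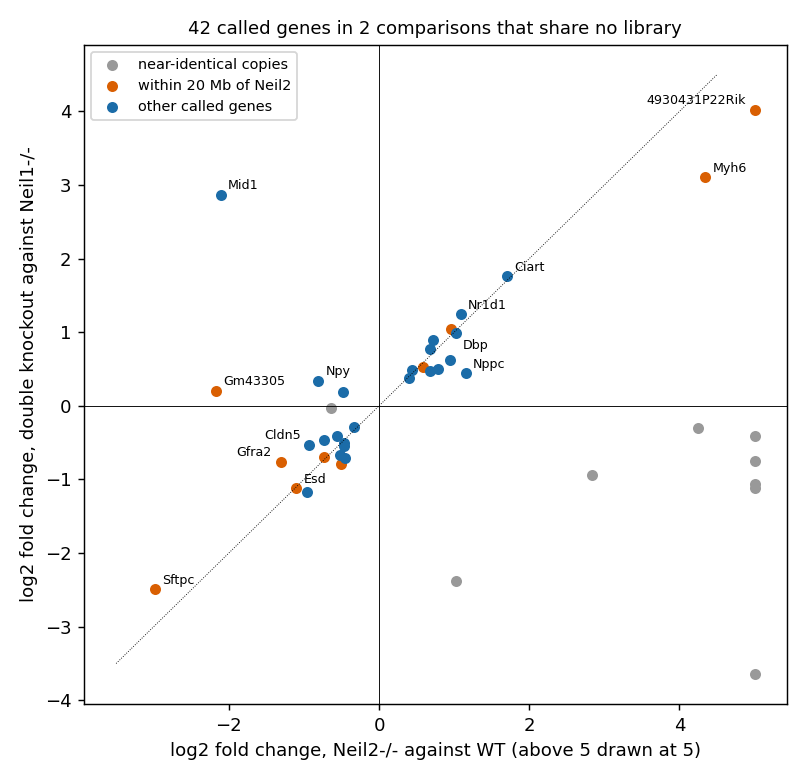
Log2 fold change of the 42 called genes in Neil2-/- against WT (horizontal) and in Neil1-/-Neil2-/- against Neil1-/- mice (vertical), with the line of equal values dotted and values above 5 drawn at 5. Genes near Neil2 and the other genes mostly lie near that line, all copies but Amd1 lie below it, and Mid1, Npy, Gm40363 and Gm43305 have opposite signs.

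For Ciart the Neil1-/- libraries were at 8.91 and 10.04 CPM and the Neil1-/-Neil2-/- libraries at 31.0 and 33.1 CPM (1.76, SE 0.22). For Nr1d1 they were at 93.3 and 83.8 against 205 and 214 CPM (1.24, SE 0.20), and for Dbp at 73.8 and 68.9 against 144 and 139 CPM (0.99, SE 0.22, adjusted p = 0.097). For Cirbp they were at 26.5 and 27.2 against 52.0 and 47.9 CPM (0.89, SE 0.11), and for Esd at 68.5 and 75.8 against 33.9 and 32.5 CPM (-1.12, SE 0.12). In each of these genes the libraries without NEIL2 stood apart from those with it in both comparisons. Nfil3, which missed the threshold against WT, was at 12.5 and 10.6 against 4.32 and 4.19 CPM (-1.45, SE 0.24), and Rbm3 at 93.9 and 88.8 against 182 and 196 CPM (1.05, SE 0.20), and both passed here.

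Neil1-/-Neil2-/- replicate 1 stood apart from the other 9 libraries, at 43.9 on the first principal component (23.4% of the variance) against -21.1 to 10.9. Without it 12 genes changed in the comparison with Neil1-/- mice, among them 2 of the 42 with the same sign (Ciart and Esd) and 2 with the opposite sign (Mid1 and Tmem254b). The same sign was then seen for 31 of the 42, for 20 of the 23 and for 9 of the 10, with an unadjusted p under 0.05 for 27, 19 and 8, against 7.33% of all genes. Against WT, 29 genes changed in Neil2-/- mice without that library.

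The difference between the 2 effects of losing NEIL2 passed its own test for 13 genes (0.0930%), 8 of them among the 42. These were Mid1, Npy, Tmem254b, Amd2, Ccl21b, LOC100041599, Gm29801 and Gm29804, of which only Mid1 and Npy are not copies. Npy was at 32.2 and 31.6 CPM in Neil1-/- and at 36.9 and 44.0 CPM in Neil1-/-Neil2-/- libraries, so it was low in both single knockouts and, in the double knockout, within or just below the WT range of 40.6 to 44.8 CPM. For the other 34 genes this test does not show that the effects were alike. For Esd the difference of the log2 fold changes was -0.01 (adjusted p = 0.995) and for Ciart 0.05 (adjusted p = 0.99).

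Against the other single knockout, Neil2-/- mice differed in 428 genes (3.06%), among them 28 of the 42. Both comparisons use the same Neil2-/- libraries. For Esd the log2 fold change was -1.10 against WT and -1.25 (SE 0.11) against Neil1-/- mice, and for Cirbp 0.72 and 0.95 (SE 0.10). Mid1 had -2.10 and -0.11 (SE 0.21, adjusted p = 0.82), and Ppp1r1b 0.44 and -0.02 (SE 0.09, adjusted p = 0.94). Ppp1r1b was at 80.0 and 73.1 CPM in Neil1-/- libraries, which overlap the Neil2-/- range of 69.8 to 79.4 CPM and lie above the WT range of 51.9 to 58.9 CPM.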

How the data were processed

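Per the methods, BGI sequenced the libraries as paired-end reads and filtered them with SOAPnuke. The submitters' processing notes name HISAT, StringTie, GATK, Bowtie2 and RSEM, with no versions, and the build GRCm38. The authors deposited estimated counts per gene from RSEM, not normalized, of which 87.8% were whole numbers. They were rounded here. Of 18558 gene numbers 18429 matched the RefSeq annotation.

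Genes were filtered with filterByExpr (minimum count 10), scaled by TMM and fitted in edgeR 4.0.16 (R 4.3.3) with 1 mean per genotype over 10 libraries (19618923 to 21970180 counts), and tested by the quasi-likelihood test, 2-sided. DESeq2 1.42.0, limma voom 3.58.1, a replicate block, other filters and scalings and leaving out libraries were alternatives. Called means an adjusted p under 0.05. CPM values are counts over the TMM-scaled library size. The test was checked on simulated data. The genes named are every called gene (but for 1 that is not reported here), the genes the article names, and from each list at most 4 genes of smallest p. The members and lists were chosen with earlier results of these data known, and 5 lists were written after the called genes were seen. Replicate numbers did not pair the libraries (correlation of deviations -0.0553, -0.148 and 0.0738). Replicates differed beyond counting noise.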

Additional observations from a re-analysis of the deposited data

Results flagged for a closer look

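For 8 genes called in Neil2-/- against WT mice, the effect of NEIL2 loss differed between Neil1-/- and other mice, by the interaction test of edgeR. The values are the log2 fold change of Neil1-/-Neil2-/- against Neil1-/- minus that of Neil2-/- against WT. For Mid1 it was 4.97 (adjusted p = 9.27e-06, from -2.10 to 2.87) and for Npy 1.15 (adjusted p = 0.00343, from -0.81 to 0.34). The other 6 are near-identical copies. The difference was -3.40 for Tmem254b (adjusted p = 4.15e-05), -13.34 for Ccl21b (adjusted p = 4.15e-05), -11.34 for LOC100041599 (adjusted p = 7.83e-05), -6.48 for Amd2 (adjusted p = 0.000236), -3.77 for Gm29801 (adjusted p = 0.000409) and -4.55 for Gm29804 (adjusted p = 0.0021). The fitted values of Ccl21b and LOC100041599, which had 0 counts in WT, depend on the prior count and are no bounds. Groups had 2 or 3 libraries, too few to test within a group whether a library is an outlier. Neil1-/-Neil2-/- replicate 1 stood apart on the first principal component, and results without it are given above and below.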

How the results depend on the processing

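The 42 genes of Neil2-/- against WT became 64 without a filter on low counts, 158 with DESeq2, 152 with DESeq2 and no filter, 73 at a threshold of 0.1, 15 to 23 with 1 of the 6 libraries left out and 29 without Neil1-/-Neil2-/- replicate 1. The 23 genes that are neither copies nor near Neil2 became 36, 117 and 111 with the first 3 settings, 14 without an abundance trend, and 6 to 13 with a library left out, where 13 is without Neil1-/-Neil2-/- replicate 1. With the replicate number as a block, the 42 became 18 (16 shared) and the 23 became 7; these numbers share no stated origin. The same block gave 166 genes for Neil2-/- against Neil1-/- (428), 26 for Neil1-/-Neil2-/- against Neil1-/- (64). For Neil2-/- against Neil1-/- no filter gave 676, DESeq2 910 and a library left out 50 to 469. For Neil1-/-Neil2-/- against Neil1-/- these were 150, 275 and 12 to 153, with 12 without Neil1-/-Neil2-/- replicate 1, 153 without replicate 2, and 35 and 20 without Neil1-/- replicate 1 or 2. The interaction (13) gave 22 without a filter, 30 with DESeq2 and 10 to 41 with a library left out. The 3.82% called within 20 Mb was 0% within 5 Mb and 2.27% over the chromosome. Of the 42 genes 11 were in the top quartile of mean level over all genes, and 16 and 15 in the next quartiles. These were 0.237%, 0.345% and 0.327% of the genes tested in each, against 0.300% of all tested. In the lowest quartile only 112 genes were tested, and 0 were called. With quartiles over the tested genes, 7 were in the top quartile. No sign of a called gene reversed. With a library left out, signs reversed for genes that missed the threshold: Npas4 (-0.36 to 0.0136), Ogg1 (-0.20 to 0.0448), Grin2a (-0.15 to 0.19), Fxyd2 (-0.0702 to 0.18), Htr3a (-0.0906 to 0.19), Gabra2 (-0.0780 to 0.0946) and Dlg4 (-0.076 to 0.0592). Causes were not tested. With 2 or 3 mice per group, genes of few counts have wide errors, and a gene that missed the threshold may still differ.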

Other observations

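The 2 libraries without a group, whose title and genotype label disagree, had 3 and 0 counts of Neil2, 145 and 136 counts of Neil1 and 1387 and 685 counts of Esd. They entered no mean and no test.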
